A study of Mus musculus with 32 samples.

Results

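Interleukin-1 (IL-1) family cytokines and the inflammasome were followed in monocytes and in gut cells sorted as the macrophages that arise from them, through 9 genes: Il1a, Il1b, Il1rn, Il1r2, Il18, Il18bp, Casp1, Nlrp3 and Pycard. The genes were taken by symbol, and all 9 were found among the 24411 genes of the CD11c-DTR table and the 24421 genes of the CX3CR1-DTR table. All 9 passed the filter on low counts in the first table. In the second, 8 genes passed and Il1a did not.

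All mice were on the C57BL/6 background. Recipients were BM chimeras made from wild-type mice irradiated at 7 to 10 weeks of age, whose hematopoietic cells carried the diphtheria toxin receptor (DTR) either as an Itgax (CD11c) promoter transgene, written [CD11c-DTR > WT], or as the CX3CR1-DTR transgene. Diphtheria toxin (DTx) was given before the transfer at 18 ng per g body weight and afterwards at 9 ng per g, and these doses were shared by all engrafted groups. The graft itself was Ly6C+ monocytes of Cx3cr1 GFP/+ donors carrying the CD45.1 allotype, sorted as CD117- CD11b+ CD115+ GFPint cells and not exposed to DTx; the sample labels give blood as their source, whereas the protocol flushes bone marrow. Graft-derived cells were sorted by CD45.1 and GFP from colon or ileum on days 4, 8 and 12, and the GFP+ cells carried CD64 and CD11b but not Ly6C on their surface. Those of CX3CR1-DTR colon were taken on day 14, with GFP as the only marker that their titles name. The libraries compared were 3 of the graft, 3, 3 and 4 of colon on days 4, 8 and 12, 4 of ileum on each day, and 6 of CX3CR1-DTR colon. For the last group the study lists 4 repeats, and all 6 libraries with that label were used. Only cells that reached the gut and met the sort gate were measured, and the toxin also removes other host cells in which the promoter is active.

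IL-1α and IL-1β signal through the same receptor, and IL-1β and IL-18 are made as precursors that have to be cleaved. The inflammasome does this: a sensor such as NLRP3 assembles with the adaptor ASC (encoded by Pycard) and activates caspase-1, which cuts both precursors. The pathway has its own brakes, since IL-1 receptor antagonist (Il1rn) occupies the receptor, the decoy receptor (Il1r2) binds IL-1 without signalling, and IL-18 binding protein (Il18bp) captures IL-18. In the gut, macrophages are a known source of IL-1β and epithelial cells a known source of IL-18. RNA levels do not report cleavage or release.

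The stretches upstream of Il1b, Il18 and Il18bp are shown because these genes carried the segment differences described below. Each run is the 250 bases before a RefSeq start, read 5′ to 3′ on the strand of the gene, and each was found once in NCBIM37 (mm9). Capitals mark TATAAA or its reverse complement TTTATA.
Il1b (chr2:129196876-129197125, minus strand): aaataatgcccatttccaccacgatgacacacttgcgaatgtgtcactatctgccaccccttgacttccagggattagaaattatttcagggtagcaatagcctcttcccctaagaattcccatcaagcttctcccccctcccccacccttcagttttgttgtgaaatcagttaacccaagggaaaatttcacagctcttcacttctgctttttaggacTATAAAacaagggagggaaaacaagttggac
Il18 (chr9:50362555-50362804, plus strand): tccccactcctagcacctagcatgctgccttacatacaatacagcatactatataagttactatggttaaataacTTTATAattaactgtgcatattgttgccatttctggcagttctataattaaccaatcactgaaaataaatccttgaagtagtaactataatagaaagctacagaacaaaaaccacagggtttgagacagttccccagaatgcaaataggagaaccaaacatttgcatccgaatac
Il18bp (chr7:109166747-109166996, minus strand): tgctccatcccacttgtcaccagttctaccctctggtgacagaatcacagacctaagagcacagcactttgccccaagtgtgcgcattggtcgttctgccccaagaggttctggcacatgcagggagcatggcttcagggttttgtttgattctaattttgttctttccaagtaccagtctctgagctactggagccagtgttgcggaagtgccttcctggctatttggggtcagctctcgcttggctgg
In the Il1b run the TATAAA lay 31 to 26 bases before the start, whereas the match in the Il18 run lay 175 to 170 bases before it. The Il18bp run held none of the 5 motifs searched on both strands, which were TATAAA (known from core promoters), TGANTCA (AP-1), GAGGAA (ETS core), the interferon-stimulated response element and TTCNNNGAA (STAT). Of 32851 RefSeq promoters of the same length, TATAAA was present in 12.4%, TGANTCA in 6.75%, GAGGAA in 23.3%, the interferon-stimulated response element in 2.98% and TTCNNNGAA in 7.02%. Among the 9 genes it was 3, 2, 4, 0 and 1 in the same order, counting any of their 12 listed starts. GC content was 44.4% for Il1b, 35.6% for Il18 and 52.4% for Il18bp. The RefSeq start of Il18 lies upstream of the transcript counted here, which begins at position 50373473 of chromosome 9.

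Libraries held 591817 to 5228664 reads on genes in CD11c-DTR recipients and the graft, and 1223772 to 4218027 in CX3CR1-DTR recipients. Levels are given as normalized reads, meaning counts per 10000000 reads on genes, so that the floor of 3 counts equals 5.74 to 50.7 normalized reads depending on the library. Reads come from the 3′ end, so levels of different genes are not compared as abundances, and a ratio of 2 genes is compared only between libraries. The defining macrophage genes (10 of 10 listed were in the tables, Csf1r, C1qa and Mertk among them) summed to 101954 to 137124 normalized reads in the graft, 4964 to 32223 in colon and 13175 to 144817 in ileum. At most 1 of the 10 was at 0 in any library. Epithelial genes (10 listed, Epcam and Krt8 among them) summed to 46.7 to 85.8 in the graft, 169798 to 250929 in colon and 30879 to 215641 in ileum, where 4 or 5 of the 10 were at 0 in each graft library and none was at 0 in the gut. Neutrophil genes (10 listed) summed to 13473 to 16117 in the graft and 265 to 2798 in the gut of CD11c-DTR recipients, and the 5 classical monocyte genes to 65667 to 86643 and 272 to 4082. Within the ileum on day 4, replicates 2 and 3, both of experiment 1, had epithelial sums of 208619 and 215641, and replicates 1 and 4, of experiment 2, had 58290 and 65351. By these lists colonic libraries held less macrophage than epithelial marker RNA (0.05 to 0.322% against 1.698 to 2.509% of reads on genes), so they are called macrophages by their sort and not by their markers. Their macrophage sum was also below that of the graft (1.02 to 1.371%), where Lyz2 alone had 76907 to 104937 normalized reads, against 1025 to 6718 in colon. C1qa and Mertk of the same list ran the other way. C1qa had 21.1 to 57.2 in the graft and 2015 to 13130 in colon, and Mertk 0 and 19.9 to 68.7. The part of the other cells in the results below was not tested. In bulk samples fewer cells of a type and less RNA per cell cannot be told apart.

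A 4th colon day 8 library, replicate 1, matched no column of the source data (4.18% of 1412 genes, against at least 99.86% for the other 25) and was left out of the fits. Its macrophage sum was 111574 and its epithelial sum 111664, which set it apart from the other colonic libraries. Values with it are named below.

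Most of the 9 genes were higher in libraries sorted as gut macrophages than in the monocyte graft. Il1b, Il1rn, Il1r2, Il1a and Casp1 rose in both segments on all 3 days, Il18 rose everywhere but in ileum on day 8, and Il18bp rose in ileum on all 3 days and in colon on day 12. Nlrp3 was the exception in direction, and fell in colon on day 4. Pycard did not pass the test on any day. From the graft to colon on day 4, 6 of 9 genes rose and 1 fell, where 60.4% of all 11842 genes tested changed (35.9% higher, 24.5% lower). On day 8, 6 rose and 0 fell (59.1% of all genes changed, 35.2% higher and 23.9% lower), and on day 12, 7 rose and 0 fell (62.6%, 37.7% and 24.9%). In ileum 7, 6 and 7 of the 9 rose on days 4, 8 and 12 and none fell, where 56.7%, 53.9% and 55.9% of all genes changed with 36.2%, 34.3% and 35.9% higher and 20.5%, 19.5% and 20.0% lower. The counts of the 9 genes thus stand against high shares of genes called overall. Scaling to library totals moved the median over all genes from 0.20 to 0.24 down to -0.35 to -0.04 and turned the excess of higher calls in 5 of the 6 comparisons, with 3527 higher and 3763 lower in colon on day 4, 3669 and 3887 on day 12, and 3447 and 3814, 3096 and 4205, and 3291 and 3960 in ileum on days 4, 8 and 12. On colon day 8 the counts became 3560 and 3405. The calls of the 9 genes against the graft were the same under that scaling, except that Nlrp3 also passed in colon on day 8. The median log2 fold change of the 9 genes was 3.50, 3.85 and 3.43 in colon and 3.55, 2.82 and 3.68 in ileum, against 0.20 to 0.24 over all genes. With Il1a at its lower bound the medians were 2.60, 2.27 and 3.43 in colon and 3.41, 2.82 and 3.68 in ileum. All 6 comparisons share the 3 graft libraries and are not independent of each other. All tests are the two-sided quasi-likelihood test of edgeR with Benjamini-Hochberg adjustment over all genes tested, and folds are given as log2 fold change ± standard error.

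**Figure D1:**
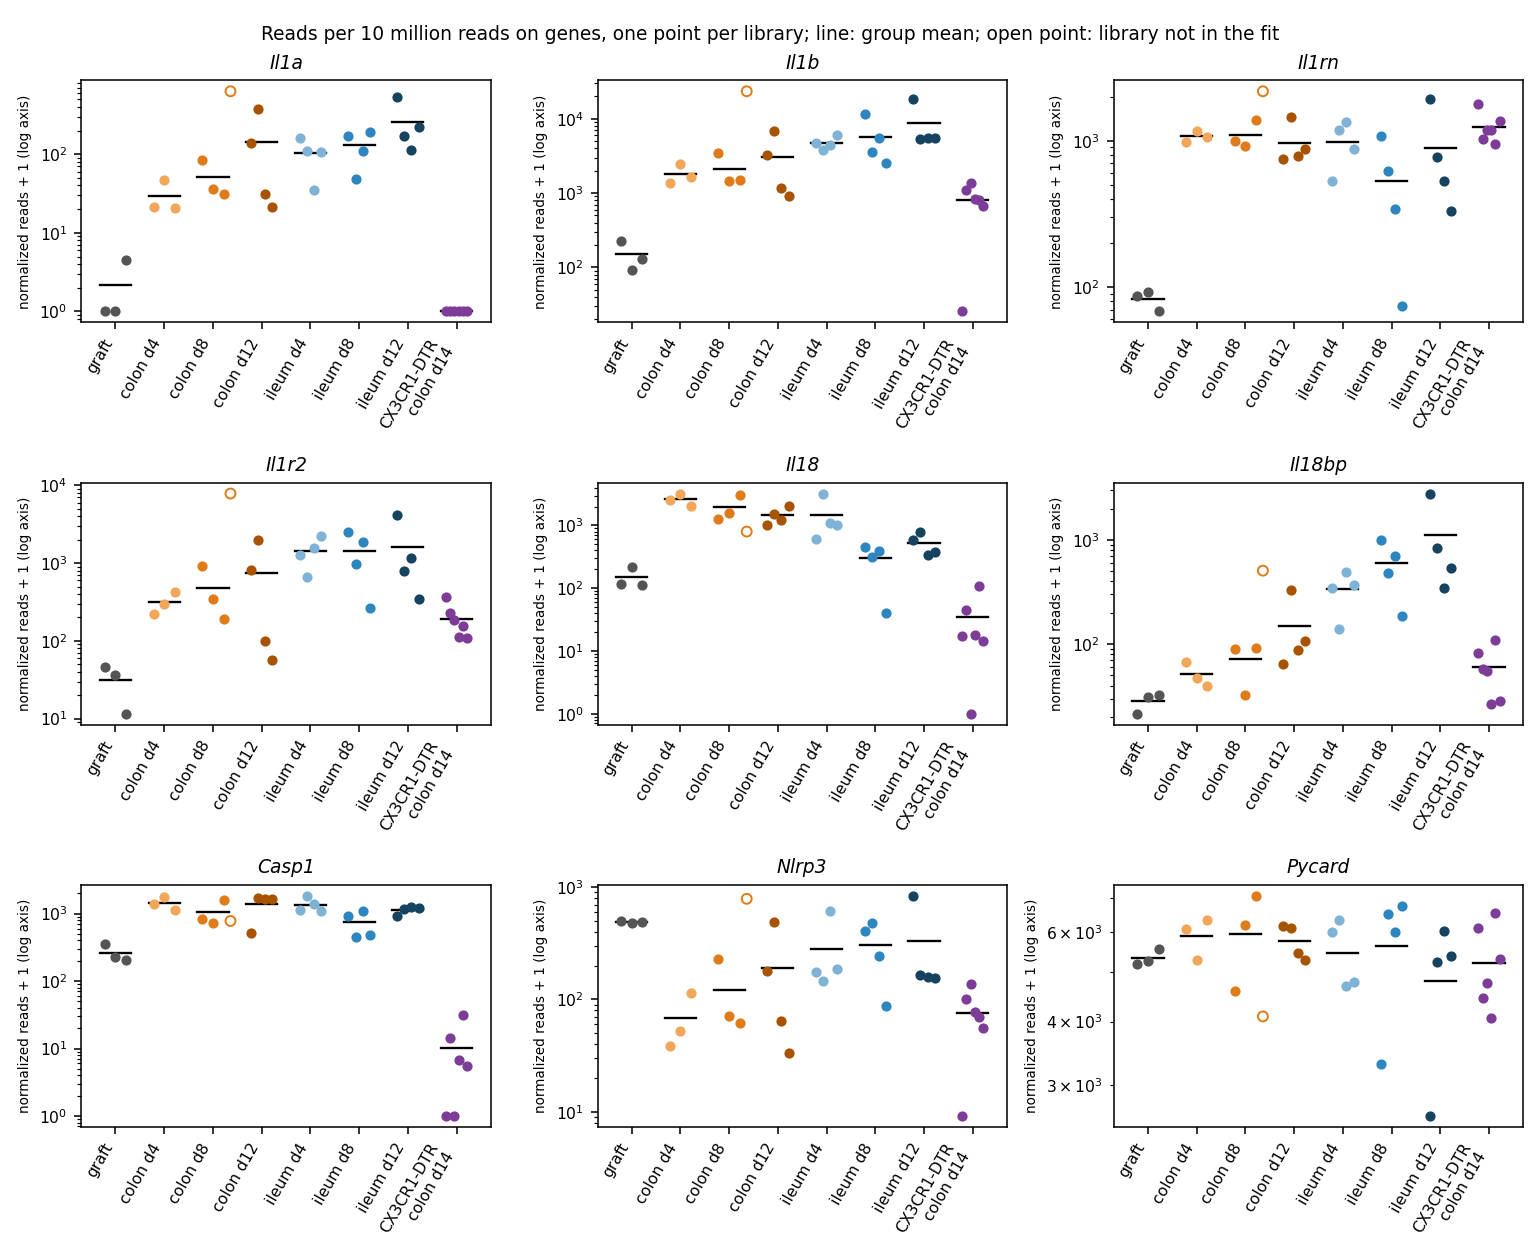
Normalized reads plus 1 (log axis) of the 9 genes in 8 groups, CX3CR1-DTR colon included; each point is 1 library, lines are group means and the open point is the left-out colon day 8 library. Il1b, Il1rn, Il1r2 and Casp1 of the CD11c-DTR gut libraries lie above the graft with 1 exception (Il1rn in ileum day 8 replicate 4, 73.1), and Nlrp3 in colon on day 4 lies below it.

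Il1b (chromosome 2, 129190314 to 129196875, NM_008361), which encodes IL-1β, had 229, 90.7 and 130.3 normalized reads in the 3 graft libraries. In colon Il1b had 1359.7, 2428 and 1621 on day 4, 3426, 1467 and 1486 on day 8, and 3239.9, 6771, 1177 and 897 on day 12. In ileum Il1b had 4776, 3736, 4359 and 5982 on day 4, 11503, 3539, 5446 and 2525 on day 8, and 18477, 5339, 5579 and 5476 on day 12. Every gut library exceeded every graft library, and ileum day 12 replicate 1 stood well above the other ileal libraries of that day. The log2 fold change of Il1b from the graft was 3.97 ± 0.72 in colon on day 8 (adjusted p = 5.26e-05) and 4.45 ± 0.72 on day 12 (adjusted p = 1.14e-05), with all 3 and all 4 libraries higher. In ileum it was 5.40 ± 0.75 on day 8 (adjusted p = 2.39e-06) and 6.11 ± 0.78 on day 12 (adjusted p = 6.32e-07), each with 4 of 4 libraries higher. Over all alternatives the adjusted p of Il1b against the graft did not exceed 0.00217 on any day in either segment. Neutrophils also express Il1b. The sum of the neutrophil list was lower in every gut library than in every graft library, but not each gene of it moved that way. Ly6g had 16.3 to 27.5 normalized reads in the graft. In colon it had 467 to 1460 on day 4, 607 to 949 on day 8 and 217 to 536 on day 12. The part of neutrophils in the Il1b values was not tested.

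Il1a (chromosome 2, 129125346 to 129135708, NM_010554), which encodes IL-1α, was at the floor in the graft, with 0, 0 and 3.52 normalized reads. In colon Il1a had 20.04, 46.1 and 19.4 on day 4, 83.8, 35.5 and 30.6 on day 8, and 137, 375, 30.4 and 20.5 on day 12. In ileum Il1a had 161, 108, 33.8 and 105 on day 4, 169, 47.0, 109 and 193 on day 8, and 533, 170.2, 113 and 219 on day 12. The gene was above the floor of 3 counts in every one of these gut libraries but ileum day 4 replicate 3, the shallowest, where 33.8 lay below a floor of 50.7. Against the graft at the floor of 3 counts in each library, Il1a was at least 2.76-, 4.83- and 13.6-fold higher in colon on days 4, 8 and 12 and at least 9.87-, 12.5- and 25-fold higher in ileum. It passed on every day (adjusted p from 2.15e-05 in ileum on day 12 to 0.0198 in colon on day 4, with every library higher). The colon day 4 call did not hold without graft replicate 1 (adjusted p = 0.0544), graft replicate 2 (0.0732) or colon day 4 replicate 2 (0.0604), or with all 4 colon day 8 libraries in the fit (0.0623).

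Il1rn (chromosome 2, 24192380 to 24207011, NM_031167) encodes the receptor antagonist. It had 85.8, 90.7 and 66.9 normalized reads in the graft. In colon Il1rn had 979, 1173 and 1059.9 on day 4, 995, 923 and 1390.4 on day 8, and 749, 1443, 788 and 882 on day 12. In ileum Il1rn had 526, 1184, 1335 and 881 on day 4, 1071, 621, 340.4 and 73.1 on day 8, and 1921, 775, 534 and 331 on day 12. Colonic libraries lay close together, ileal ones spread widely, and ileum day 8 replicate 4 was as low as the graft. In colon the log2 fold change of Il1rn was 3.87 ± 0.68, 3.89 ± 0.68 and 3.69 ± 0.66 on days 4, 8 and 12 (adjusted p = 3.68e-05, 3.46e-05 and 4.08e-05, all libraries higher). In ileum it was 3.68 ± 0.67 and 3.68 ± 0.66 on days 4 and 12 (adjusted p = 5.82e-05 and 5.23e-05, 4 of 4 libraries higher) and 2.82 ± 0.65 on day 8 (adjusted p = 0.000748, higher in 3 of 4 libraries).

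Il1r2 (chromosome 1, 40141613 to 40182070, NM_010555) encodes the decoy receptor, and had 44.9, 35.7 and 10.6 normalized reads in the graft. In colon Il1r2 had 218, 297 and 418 on day 4, 917, 347 and 189 on day 8, and 824, 1977, 99.9 and 55.7 on day 12. In ileum Il1r2 had 1276, 664, 1571 and 2222 on day 4, 2539.9, 971, 1875 and 266 on day 8, and 4109, 782, 1166 and 340.05 on day 12. No gut library overlapped the graft, and colon on day 12 held both high and low libraries. Il1r2 rose from the graft by 3.50 ± 1.17, 4.08 ± 1.18 and 4.66 ± 1.16 in colon (adjusted p = 0.013, 0.00481 and 0.00133) and by 5.58 ± 1.2, 5.63 ± 1.2 and 5.96 ± 1.21 in ileum (adjusted p = 0.000377, 0.000365 and 0.000207) on days 4, 8 and 12, with every library higher. Without graft replicate 3 the adjusted p for colon on day 4 was 0.0535. Among all genes tested, those whose pattern over the 25 libraries was most like that of Il1r2 were Itgax (Pearson r = 0.927), Pxdc1 (0.927) and Il1b itself (0.919).

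Il18 (chromosome 9, 50373473 to 50389942, NM_008360), which encodes IL-18, had 114, 217 and 113 normalized reads in the graft. In colon Il18 had 2550.5, 3228 and 2019 on day 4, 1257, 1574 and 3035 on day 8, and 1003, 1549, 1242 and 2060.3 on day 12. In ileum Il18 had 603, 3144, 1081 and 1025 on day 4, 457, 313, 385 and 39.9 on day 8, and 589, 788, 333 and 376 on day 12. All colonic libraries were above all graft libraries and above all ileal libraries of days 8 and 12, whereas ileum day 8 replicate 4 lay below the graft. Il18 rose from the graft in colon by 4.27 ± 0.65, 3.85 ± 0.64 and 3.43 ± 0.61 on days 4, 8 and 12 (adjusted p = 5.58e-06, 1.75e-05 and 3.91e-05, all libraries higher). In ileum Il18 rose by 3.41 ± 0.61 on day 4 (adjusted p = 5.40e-05, 4 of 4 libraries higher) and by 1.97 ± 0.58 on day 12 (adjusted p = 0.00608, 4 of 4), and the value on day 8 was 1.13 ± 0.58 (adjusted p = 0.104, 3 of 4). Without ileum day 8 replicate 4 the last was 1.47 (adjusted p = 0.0254). Epithelial genes rose as well, from sums of at most 85.8 in the graft to at least 30879 in every gut library. Within ileum day 4, replicates 1 to 4 had epithelial sums of 58290, 208619, 215641 and 65351, with Il18 at 603, 3144, 1081 and 1025. The part of epithelial cells in the Il18 values was not tested.

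Il18bp (chromosome 7, 109163591 to 109166669, NM_010531), which encodes the IL-18 antagonist, had 20.4, 30.2 and 31.7 normalized reads in the graft. In colon Il18bp had 65.8, 46.1 and 38.9 on day 4, 89.1, 31.6 and 89.9 on day 8, and 62.7, 333, 86.9 and 106 on day 12. In ileum Il18bp had 344, 137, 490.02 and 368 on day 4, 1001, 485, 706 and 186 on day 8, and 2788, 832, 348 and 532 on day 12. Ileal libraries were all far above the graft, while colonic libraries lay a little above it or, in replicate 3 of day 8, within it, and replicate 2 of day 12 was the highest of them. Il18bp rose in ileum by 3.55 ± 0.81, 4.52 ± 0.81 and 5.57 ± 0.83 on days 4, 8 and 12 (adjusted p = 0.00069, 5.21e-05 and 5.07e-06, 4 of 4 libraries higher each). In colon Il18bp had 1.00 ± 0.88 on day 4 (adjusted p = 0.338) and 1.47 ± 0.85 on day 8 (adjusted p = 0.142), and passed on day 12 with 2.43 ± 0.79 (adjusted p = 0.0104, 4 of 4 higher). Without colon day 12 replicate 2, the day 12 value was 1.75 (adjusted p = 0.0528). The day 8 value passed with the compared groups alone (1.49, adjusted p = 0.0158) and with all 4 colon day 8 libraries (2.76, adjusted p = 0.0177).

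Casp1 (chromosome 9, 5298517 to 5307281, NM_009807), which encodes caspase-1, had 351, 228 and 204 normalized reads in the graft. In colon Casp1 had 1368, 1752 and 1115 on day 4, 822, 718 and 1570.2 on day 8, and 513, 1707, 1616 and 1668 on day 12. In ileum Casp1 had 1143, 1830.02, 1369 and 1078 on day 4, 930.03, 444, 1092 and 478 on day 8, and 927, 1179, 1234 and 1206 on day 12. The graft lay below every gut library. Casp1 rose by 2.60 ± 0.42, 2.14 ± 0.41 and 2.55 ± 0.40 in colon (adjusted p = 1.12e-05, 0.000101 and 8.13e-06) and by 2.48 ± 0.40, 1.66 ± 0.39 and 2.28 ± 0.40 in ileum (adjusted p = 1.65e-05, 0.000998 and 3.80e-05) on days 4, 8 and 12, with every library higher, and the adjusted p was at most 0.0109 over all alternatives.

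Nlrp3 (chromosome 11, 59356188 to 59380458, NM_145827), the sensor, was tightly grouped in the graft at 498, 481 and 489 normalized reads. In colon Nlrp3 had 37.2, 51.2 and 113 on day 4, 230.5, 71.0 and 61.2 on day 8, and 177, 486, 63.0 and 32.2 on day 12. In ileum Nlrp3 had 175, 144, 608 and 184 on day 4, 408, 475, 244 and 86.4 on day 8, and 837, 164, 157 and 154 on day 12. Colonic libraries of days 4 and 8 were all below the graft, and in ileum single libraries reached or passed it. Nlrp3 fell in colon on day 4 (log2 fold change -2.69 ± 0.89, adjusted p = 0.0118, lower in 3 of 3 libraries; 0.056 without colon day 4 replicate 1). Later values in colon were -1.95 ± 0.85 on day 8 (adjusted p = 0.0525, lower in 3 of 3) and -1.33 ± 0.75 on day 12 (adjusted p = 0.128, 4 of 4 below the graft mean). Colon day 12 replicate 2, with 486, lay within the graft range. The day 8 value passed with DESeq2 (adjusted p = 0.0377), library totals (0.0336), no filter (0.0456), the compared groups alone (0.000606) and ileum day 4 of experiment 2 alone (0.041). Without colon day 12 replicate 2 the day 12 value was -2.31 (adjusted p = 0.0126). In ileum Nlrp3 had -0.82 ± 0.79, -0.52 ± 0.75 and -0.31 ± 0.74 (adjusted p = 0.389, 0.586 and 0.743). Per 1000 macrophage marker reads, the Nlrp3 medians were 4.15 in the graft, 7.50, 9.33 and 10.9 in colon, and 7.23, 4.14 and 3.41 in ileum. Lyz2 carries much of that marker sum in the graft, with 76907 to 104937 normalized reads against 1025 to 6718 in colon. On this scale Pycard also went from 43.3 in the graft to 630 in colon on day 4. Graft and gut are therefore not compared on it, and the ratio, chosen after seeing the data, carries no test.

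Pycard (chromosome 7, 135134887 to 135137381, NM_023258), the adaptor, had 5192, 5270.2 and 5564 normalized reads in the graft, 4589 to 7074 in colon and 2604 to 6756 in ileum. Graft and gut libraries overlapped on every day. Its log2 fold changes from the graft lay between -0.03 and 0.32 (adjusted p from 0.338 to 0.945). Their sign turned under scaling to library totals in colon on days 4 and 12 and in ileum on days 4 and 8, where that scaling moved the median over all genes from 0.20 to -0.35 in ileum on day 8. A p that misses the threshold does not show that the levels were the same.

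**Figure D2:**
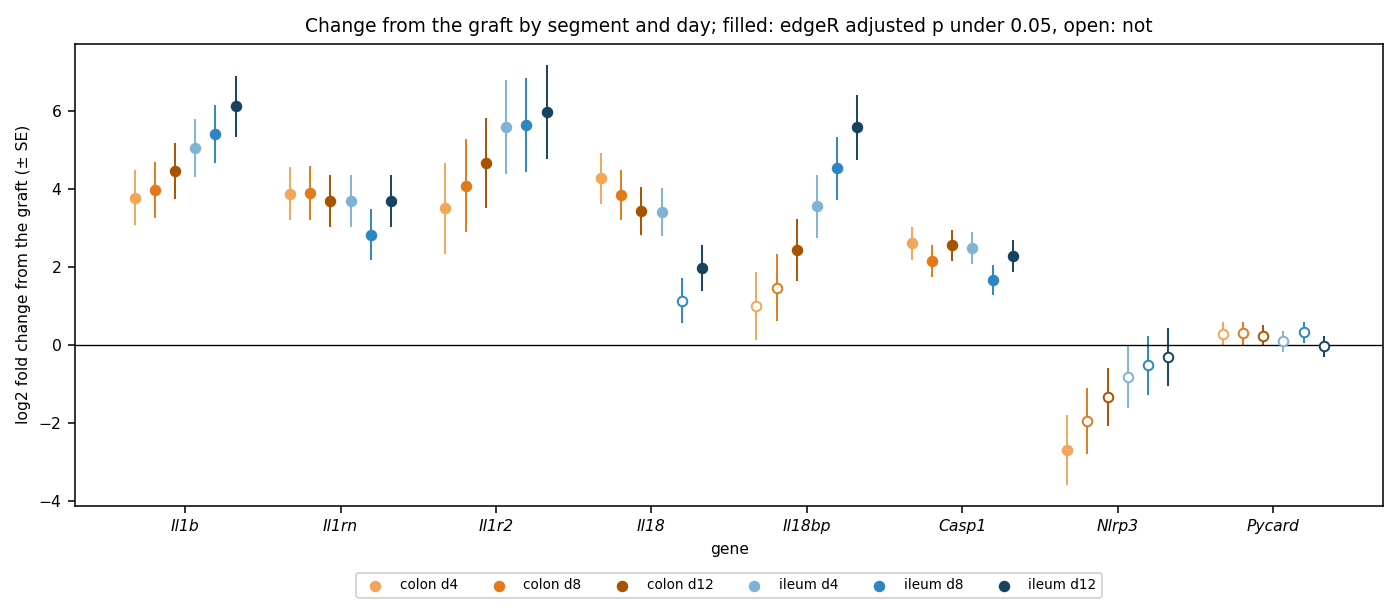
Log2 fold change from the graft (points) with its standard error (bars) for 8 genes in colon and ileum on days 4, 8 and 12, from the edgeR fit; filled points have an adjusted p under 0.05, and Il1a is left out because the graft was at the floor. Il18bp in colon has values of 1.00, 1.47 and 2.43 against 3.55, 4.52 and 5.57 in ileum, and Nlrp3 in colon on day 4 (-2.69) is the lowest point.

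Other genes of the pathway were called in both directions, where 60.4% of all genes were called in colon and 56.7% in ileum on day 4. Of the other IL-1 family ligands, 0 of 6 passed the filter. Il33, an alarmin of stromal and epithelial cells, had at most 127 normalized reads, and was above the floor in 18 of 25 libraries. Of 7 receptors, 3 were tested. Il1r1, the signalling IL-1 receptor, was at the floor in the graft (0 to 8.17 normalized reads) and was at least 14.3-, 16.1- and 17.1-fold higher in colon and at least 18.4-, 17.3- and 15.4-fold higher in ileum on days 4, 8 and 12. Sigirr, an inhibitory receptor of the family, rose from 94.0 to 134 normalized reads in the graft by 1.97 ± 0.40 in colon on day 4 (adjusted p = 0.000172) and by 1.58 ± 0.39 in ileum on day 4 (adjusted p = 0.00138), with 3 of 3 and 4 of 4 libraries above the graft. Il18r1, the IL-18 receptor chain, was at the floor in the graft, had 30.0 to 121 normalized reads in ileum on day 12 and 0 to 21.1 in colon, and differed between the segments on days 8 and 12 (adjusted p = 0.0412 and 0.00827, with 0.092 on day 4). The 5 T cell markers moved the same way, with sums of 347 to 854 in ileum and 36.7 to 59.2 in colon on day 8, and 394 to 742 and 42.7 to 55.7 on day 12, and their part in this difference was not tested.

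Of 11 other sensors 9 were tested. From the graft to day 4, 2 rose and 4 fell in colon and 4 rose and 3 fell in ileum, with medians of -0.35 and -0.37. Nlrp6, a sensor known from intestinal epithelium, had 0 normalized reads in every graft library and 308 to 1689.7 in the gut, at least 124-fold higher in colon and at least 119-fold higher in ileum on day 4. Naip1 rose by 5.95 ± 0.47 in colon and by 5.85 ± 0.47 in ileum on day 4 (adjusted p = 3.99e-10 and 5.66e-10), a value that is uncertain because the Naip genes are near-identical copies that can share reads. Mefv, which encodes pyrin, fell in colon on day 4 (-3.25 ± 0.82, adjusted p = 0.00152). Of 11 caspases, pore and regulator genes, all tested, 2 rose and 3 fell in colon and 3 rose and 1 fell in ileum on day 4. Pstpip1, a pyrin partner, fell in colon (-5.32 ± 0.57, adjusted p = 3.75e-08, from 3023 to 3444 normalized reads in the graft to 31.5 to 97.2) and in ileum (-3.31 ± 0.47, adjusted p = 2.49e-06). Serpinb1a, an inhibitor of neutrophil proteases and inflammatory caspases, rose by 2.81 ± 0.42 in colon and by 2.71 ± 0.41 in ileum (adjusted p = 4.51e-06 and 5.73e-06). Of 13 receptor signalling genes, all tested, 2 rose and 6 fell in colon and 3 rose and 4 fell in ileum on day 4. Myd88, the adaptor of the receptors, fell in both segments (-1.85 ± 0.34 in colon and -1.17 ± 0.31 in ileum, adjusted p = 6.72e-05 and 0.00268). Irak3, which restrains the pathway, fell too (-3.25 ± 0.53 and -2.81 ± 0.49, adjusted p = 1.33e-05 and 3.99e-05). Tnfaip3, which encodes the NF-κB inhibitor A20, rose by 1.67 ± 0.53 and by 2.95 ± 0.53 (adjusted p = 0.00859 and 5.04e-05). For each fold named here, every day 4 library lay outside the range of the graft.

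Between days within a segment, 1 change of the 9 genes passed the test. Of the 9 genes 0 passed from day 4 to day 8 or from day 8 to day 12 in colon, and 0 from day 8 to day 12 in ileum, where 0 of 11842 genes passed with edgeR and 0 with DESeq2 in each step. At an unadjusted p under 0.05 there were 204, 329 and 796 genes, none of them among the 9. Their log2 fold changes ranged from -0.46 to 0.77, from -0.42 to 1.46 and from -0.34 to 1.05. From day 4 to day 8 in ileum 1 of 9 passed, where 5.13% of all genes did (0.718% higher, 4.42% lower). That gene was Il18, which fell (-2.28 ± 0.52, adjusted p = 0.0153, lower in 4 of 4 libraries, and the day 4 and day 8 libraries did not overlap). The call did not hold with the experiment as a block (-1.97, adjusted p = 0.217), with the 2 ileum day 4 libraries of experiment 2 alone (-1.21, adjusted p = 0.531), in a fit of the 2 groups alone (adjusted p = 0.295) or without ileum day 4 replicate 2, the highest library (-1.49, adjusted p = 0.181). Epithelial marker sums fell alongside, from a median of 136985 on day 4 to 54397 on day 8.

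Colon and ileum differed in the IL-18 axis in opposite directions for the cytokine and its antagonist. On day 8 Il18 was higher in colon by 2.71 ± 0.55 (adjusted p = 0.000916, 3 of 3 libraries above the ileal mean) and Il18bp was lower in colon (-3.05 ± 0.72, adjusted p = 0.00282, 3 of 3 below it). On day 12 Il18 was higher by 1.46 ± 0.50 (adjusted p = 0.0286, 4 of 4) and Il18bp lower (-3.14 ± 0.62, adjusted p = 0.000901, 4 of 4). In both genes and on both days the colonic and ileal libraries did not overlap. These 2 were the 2 of 9 genes that passed on day 8, where 35.0% of all genes did (16.7% higher and 18.3% lower in colon, or 2803 and 1428 genes under library totals against 1981 and 2163), and on day 12 Il1b joined them as the 3rd of 9, where 32.5% did (15.3% higher, 17.2% lower). With the pairs of colon and ileum libraries described next as a block, 5 of the 9 passed on each day. On day 4, where 3.18% of genes passed (0.524% higher, 2.66% lower), 0 of the 9 did with edgeR, while 5 had an unadjusted p under 0.05 and DESeq2 called 1. That gene was Il18bp, with -2.55 ± 0.76 and no overlap (adjusted p = 0.0589 with edgeR and 0.0063 with DESeq2, and -2.67 with an adjusted p of 0.032 with the experiment as a block). The genes called in all on day 4 were 377 in the fit described here, 1080 with DESeq2, 1265 with that block, 3069 with ileum day 4 of experiment 2 alone and 0 with the compared groups alone. With ileum day 4 of experiment 2 alone, Il18bp (-2.57, adjusted p = 0.0282) and Il18 (1.92, adjusted p = 0.016) passed. The median log2 difference of the 9 genes was -1.28, -1.43 and -1.01 on days 4, 8 and 12, against -0.04, -0.05 and -0.01 over all genes.

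Il1b was lower in colon than in ileum on day 12 (-1.66 ± 0.55, adjusted p = 0.0246, with 4 of 4 colonic libraries below the ileal mean), although the ranges overlapped. Titles of the libraries match colon with ileum by date, and by number where one is given. This gave 3 pairs on day 8 and 4 on day 12, and Il1b was lower in colon in 3 of 3 and 4 of 4. With the pair as a block, a fit added after seeing the data, the difference of Il1b was -1.34 ± 0.33 on day 8 (adjusted p = 0.00538) and -1.77 ± 0.29 on day 12 (adjusted p = 0.000324). In the same fit Il1r2 (-1.25 ± 0.46, adjusted p = 0.0487, 3 of 3 pairs) and Nlrp3 (-1.43 ± 0.46, adjusted p = 0.0268, 3 of 3) also passed on day 8, and Il1r2 (-1.70 ± 0.42, adjusted p = 0.00624, 3 of 4) and Il1a (-1.37 ± 0.46, adjusted p = 0.0329, 4 of 4) on day 12, where 4428 and 4214 of all genes did. Il18 and Il18bp passed in it on both days (adjusted p at most 0.0258).

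Without the pairs, the call of Il1b on day 12 was less stable. Without ileum day 12 replicate 1 the difference was -0.84 (adjusted p = 0.235), and it missed the threshold without colon day 12 replicates 1, 3 or 4 as well (adjusted p = 0.0507, 0.0843 and 0.0759), with library totals (0.0526), with the compared groups alone (0.0831) and with all 4 colon day 8 libraries (0.108). On days 4 and 8 it was -1.28 ± 0.61 and -1.43 ± 0.61 (adjusted p = 0.219 and 0.0691). The day 8 value passed with DESeq2 (0.0397), with the compared groups alone (0.0327) and without colon day 8 replicate 2 (-1.94, adjusted p = 0.0452). On day 4 the 3 colonic libraries lay below all 4 ileal ones. For Il18 on day 12 the call did not hold without colon day 12 replicate 4, ileum day 12 replicate 3 or ileum day 12 replicate 4 (adjusted p = 0.085, 0.0847 and 0.0838). Adding colon day 8 replicate 1 took the day 8 difference of Il18bp to -1.76 (adjusted p = 0.0899) and turned those of Il1a, Il1b and Il1r2 from lower to higher in colon (0.54, 0.63 and 0.99), and Il1rn then passed as higher in colon (1.51, adjusted p = 0.0465). Without colon day 12 replicate 2, Il1a, Il1r2 and Nlrp3 also passed on day 12, each lower in colon. The interaction of segment with day 4 to day 12 passed in 0 of 9 genes and in 0 of 11842 with edgeR (739 at an unadjusted p under 0.05, and 1 with DESeq2).

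**Figure D3:**
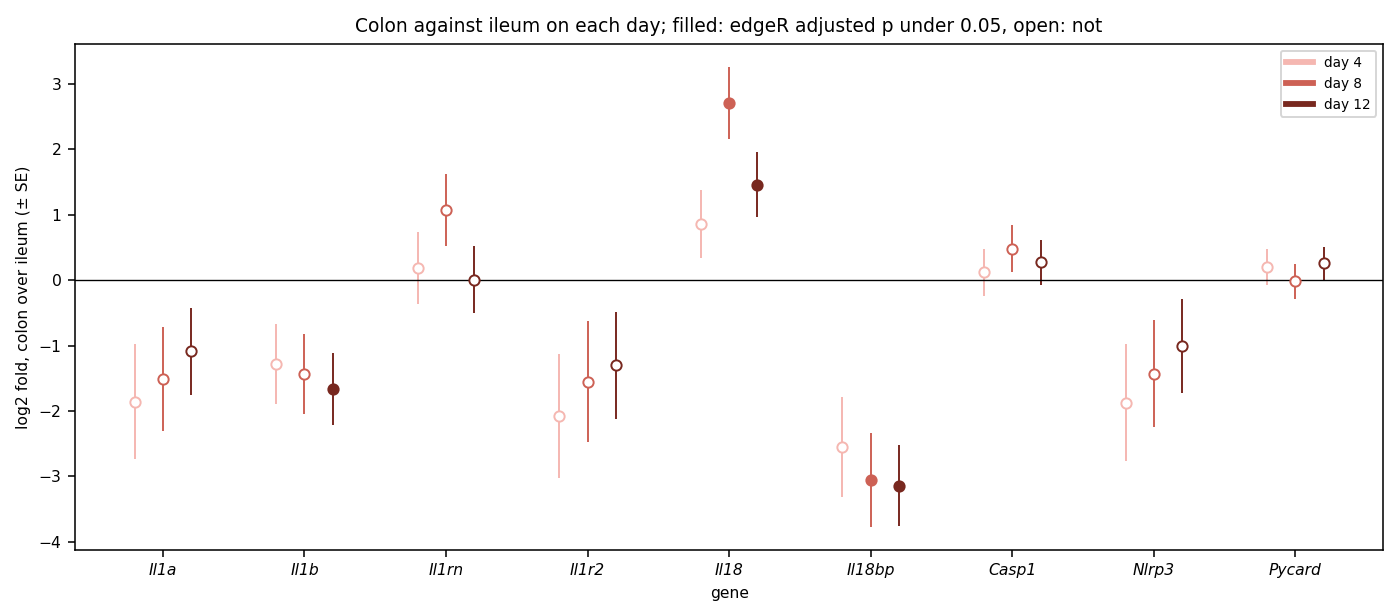
Log2 difference of colon from ileum (points, positive is higher in colon) with its standard error (bars) for the 9 genes on days 4, 8 and 12, from the edgeR fit; filled points have an adjusted p under 0.05. Il18 lies above 0 (2.71 and 1.46) and Il18bp below 0 (-3.05 and -3.14) on days 8 and 12.

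Marker genes moved with these differences. On days 8 and 12 the macrophage sums were 6558 to 32223 in colon and 26481 to 144817 in ileum, and the epithelial sums 169798 to 227364 in colon and 30879 to 91267 in ileum. Per 1000 macrophage marker reads, the Il18bp median was 4.22 and 8.94 in colon and 8.96 and 13.2 in ileum on days 8 and 12. The segments overlapped in Il18bp on this scale. On day 8 colon had 3.04 to 13.7 and ileum 4.95 to 11.1, and on day 12 they had 6.52 to 10.3 and 7.93 to 19.3. The Il1b median was 162 and 167 in colon and 90.6 and 116 in ileum, which is the opposite order. On day 12 the segments overlapped, with 73.8 to 337 in colon and 102 to 128 in ileum. This order was not particular to Il1b. All of the 9 genes but Il18bp had the higher median in colon on this scale on both days, Pycard with 598 against 80.5 on day 8. Per 1000 epithelial marker reads, the Il18 median was 7.14 and 7.41 in colon and 5.09 and 8.21 in ileum. These ratios were chosen after seeing the data, and carry no test. Other marker lists lay apart as well on days 8 and 12, with sums of 354 to 1339 in colon and 2124 to 7413 in ileum for 5 endothelial genes, 36.7 to 59.2 and 347 to 854 for 5 T cell genes, and 30.4 to 83.8 and 567 to 2055.1 for 5 B cell genes. Their part in these differences was not tested.

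**Figure D4:**
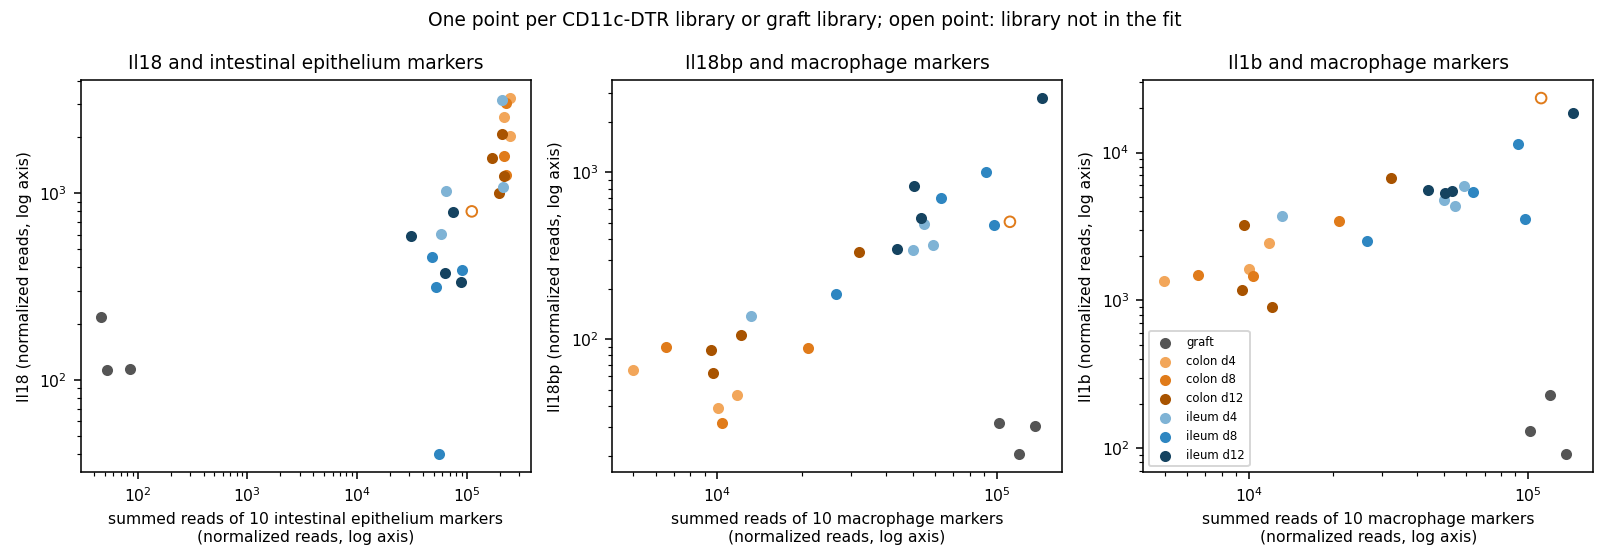
Normalized reads of Il18 against the sum of 10 epithelial marker genes (left), of Il18bp against the sum of 10 macrophage marker genes (middle) and of Il1b against the latter (right), on log axes; each point is 1 library of the graft or of CD11c-DTR recipients, and the open point is colon day 8 replicate 1, which is not in the fits. Colonic libraries of days 8 and 12 sit at epithelial sums of 169798 to 227364 and the ileal ones at 30879 to 91267, and at macrophage sums of 6558 to 32223 and 26481 to 144817.

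The balance of cytokine and antagonist within a library is a description that does not depend on the scaling between libraries, although both genes still come from a mixture of cells. The ratio of Il18bp to Il18 counts had a median of 0.179 in the graft, 0.019, 0.030 and 0.066 in colon and 0.406, 2.01 and 1.24 in ileum on days 4, 8 and 12. All 10 colonic libraries of the fit were between 0.014 and 0.215, and the 8 ileal libraries of days 8 and 12 between 1.04 and 4.73. The ratio of Il1rn to Il1b had a median of 0.514 in the graft, 0.654, 0.629 and 0.450 in colon and 0.226, 0.078 and 0.100 in ileum. Colonic libraries spanned 0.213 to 0.984 and ileal libraries 0.029 to 0.317, so the segments overlapped between 0.213 and 0.317. Ileum day 4 replicate 2, with an Il18bp to Il18 ratio of 0.044, lay within the colonic range. The left-out colon day 8 library lay outside both colonic ranges, with 0.634 for Il18bp to Il18 and 0.093 for Il1rn to Il1b.

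**Figure D5:**
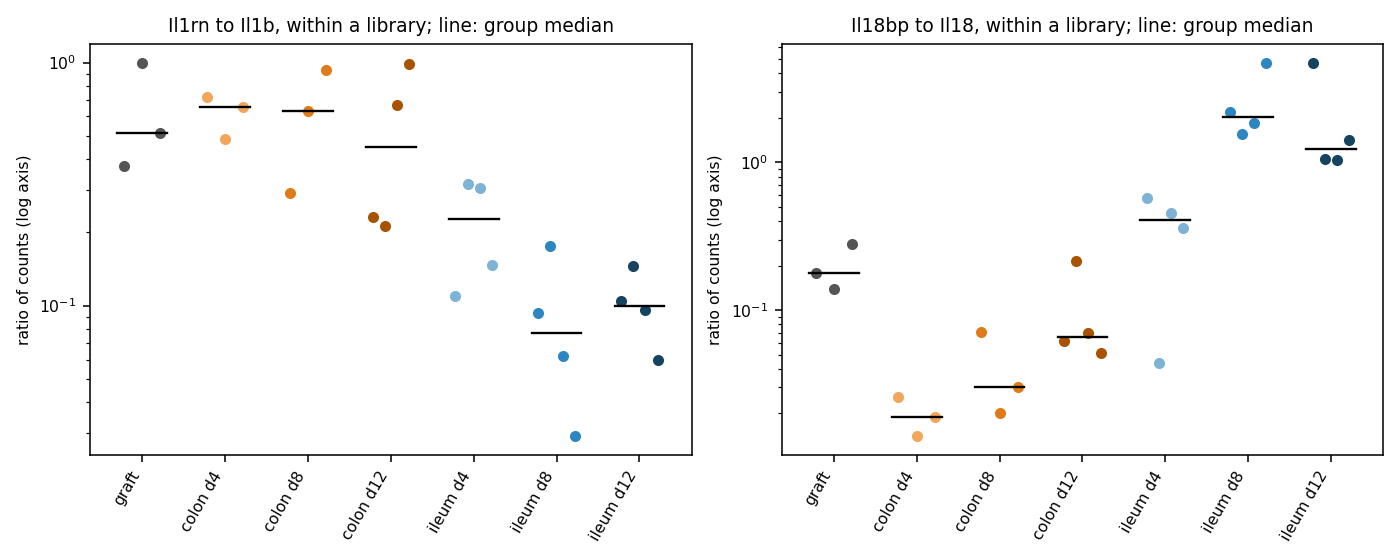
Ratio of Il1rn to Il1b (left) and of Il18bp to Il18 (right) counts within each library (log axis) in 7 groups; each point is 1 library and lines are group medians. The Il18bp to Il18 ratio is at most 0.215 in colon and at least 1.04 in ileum on days 8 and 12, and ileal Il1rn to Il1b ratios reach at most 0.317.

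Across the 25 libraries of the fit, the 9 genes fell into patterns that crossed their roles. As a description over libraries that share groups and depth, Il1b followed Il1r2 (Pearson r = 0.92 on log2 normalized reads with 50 added), Il1a (0.84) and Il18bp (0.81). Il18 followed Il1rn (0.83) and Casp1 (0.75) and had little relation to Il1b (0.22) or Il18bp (-0.17). Nlrp3 ran with Il18bp (0.43) and against Il18 (-0.50), Pycard (-0.50) and Casp1 (-0.48), and Pycard ran against Il18bp (-0.55). The gene most like Il1b was Rgs1 (0.974), followed by Dnase1l3 (0.963) and Sema6d (0.957). The gene most like Il18bp was Art2a-ps (0.946), with Gpm6b (0.940) and Cd274 (0.939) next. Nlrp3 was most like Plaur (0.970), Il18 most like Gfpt1 (0.950), Casp1 most like 2010107E04Rik (0.942), Il1rn most like Fam189a2 (0.938), Il1a most like AW011738 (0.855) and Pycard most like Tamm41 (0.736).

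Ordered by the group mean, ileum on day 12 was highest for Il1a, Il1b, Il1r2 and Il18bp, colon on day 8 for Il1rn and Pycard, colon on day 4 for Il18 and Casp1, and the graft for Nlrp3. Without ileum day 12 replicate 1, ileum on day 8 was highest for Il1b (5753 against 5464 on day 12) and Il18bp (595 against 571), and ileum on day 4 for Il1r2 (1433). With all 4 colon day 8 libraries, colon on day 8 was highest for Il1r2 (2322 against 1599 in ileum on day 12) and colon on day 4 for Pycard. Most neighbours in that order overlapped. Those apart were the graft below colon on day 4 for Il1a, Il1b, Il1r2 and Il18bp, and the graft below ileum on day 8 for Casp1.

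CX3CR1-DTR recipients tested whether colonic macrophages generated under another depletion had like transcriptomes. Their 6 libraries were taken on day 14 and counted in a separate table, so depletion model, day, run and table cannot be told apart. Il1rn had 953 to 1773 normalized reads (median 1182), Il1b 24.5 to 1369 (median 817) and Il1r2 109 to 368 (median 169). Il18bp had 25.6 to 109 (median 55.8), Nlrp3 8.17 to 136 (median 72.8) and Pycard 4059 to 6536 (median 5042). Il18 had 0 to 109 (median 16.7), Casp1 0 to 30.8 (median 5.12) and Il1a 0 in all 6. All 6 libraries were above the graft for Il1rn and Il1r2 and below it for Il18, Casp1 and Nlrp3, whereas for Il1b replicate 1 stood below the graft and the other 5 above it.

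From the graft to CX3CR1-DTR colon 3 of 8 genes rose and 3 fell, where 75.5% of 11718 genes changed (39.5% higher, 36.0% lower). The median log2 fold change of the 8 was 0.81, against 0.13 over all genes. Il1rn rose by 4.22 ± 0.33 (adjusted p = 3.58e-08, 6 of 6 libraries), Il1r2 by 2.89 ± 1.04 (adjusted p = 0.0204, 6 of 6) and Il1b by 2.73 ± 0.86 (adjusted p = 0.00982, 5 of 6). Of the 3 that fell, Casp1 had -4.13 ± 0.58 (adjusted p = 1.45e-05, 6 of 6), Nlrp3 -2.41 ± 0.63 (adjusted p = 0.00294, 6 of 6) and Il18 -1.66 ± 0.60 (adjusted p = 0.0206, 6 of 6). Without graft replicate 2 the adjusted p was 0.125 for Il18 and 0.051 for Il1r2, and without graft replicate 3 it was 0.0782 for Il1r2. Il18bp had 1.37 ± 0.63 (adjusted p = 0.0622, or 0.0344 with the compared groups alone, 4 of 6 above the graft mean) and Pycard 0.26 ± 0.18 (adjusted p = 0.204, 2 of 6).

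Against CD11c-DTR colon on day 12, 0 of 8 genes were higher and 5 were lower in CX3CR1-DTR colon, where 60.7% of genes differed (25.2% higher, 35.4% lower). The median log2 difference of the 8 was -1.60, against -0.11 over all genes. Casp1 (-6.86 ± 0.55, adjusted p = 1.57e-07) and Il18 (-5.26 ± 0.56, adjusted p = 1.86e-06) were lower, with 6 of 6 libraries below every colon day 12 library. Il1a was at least 9.66-fold lower, with all 6 at 0. Il1b (-1.92 ± 0.65, adjusted p = 0.0198), Il1r2 (-1.97 ± 0.73, adjusted p = 0.0305) and Il18bp (-1.28 ± 0.49, adjusted p = 0.036) were lower in 6 of 6 libraries than the day 12 mean, with overlap. Those 3 rested on colon day 12 replicate 2, without which they were -1.14, -0.77 and -0.56 (adjusted p = 0.145, 0.339 and 0.281). Il1r2 and Il18bp also missed the threshold without several single libraries of either group (adjusted p up to 0.0881). Il1rn (0.35 ± 0.23, adjusted p = 0.213, or 0.0358 without colon day 12 replicate 2), Nlrp3 (-1.28 ± 0.61, adjusted p = 0.0847) and Pycard (-0.17 ± 0.16, adjusted p = 0.385) did not pass. Il1rn was counted on another transcript there (NM_001159562, chromosome 2, 24200811 to 24207011), so its level is not strictly the same quantity in both tables.

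Besides Il18, Casp1 and Il1a, some genes unrelated to the pathway were low in CX3CR1-DTR colon. Of 910 genes whose mean reached 1000 normalized reads in all 7 groups of the CD11c-DTR table, 49 (5.38%) were more than 16-fold below the lowest of those groups in CX3CR1-DTR colon, 12 of them ribosomal protein genes. Il18, Casp1 and Il1a were not among the 910, since their graft means were 148, 261 and 1.17, and were not measured by this rule. Ppia, a housekeeping gene, had 8.20 to 54.5 normalized reads against 2432 to 5497 in the other table. Ptprc, which encodes CD45, had 13.7 to 34.1 against 249 to 8636, and Adgre1 had 4.60 to 20.4 against 169 to 1833. The macrophage sum was 7118 to 14137 and the epithelial sum 185836 to 240045, within or near the range of colon on day 12 (9450 to 32223 and 169798 to 218092). A low count of Casp1, Il18 or Il1a in this table is therefore not read as absence of the RNA.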

How the data were processed

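Libraries of sorted cells were made with a protocol derived from MARS-seq, a 3′-end method. Reads had been mapped by the authors (HISAT 0.1.6, mm9, unique hits), and the deposited values are whole-number counts from HOMER on the exons of 1 transcript per gene, with no normalization. The submitters' notes also name bcl2fastq. HOMER's version, and whether molecular identifiers were merged, are not given in the sources used here, so floors cover counting error only. The CX3CR1-DTR matrix has 52 columns with no name, which were not used. Nothing says which replicates came from separate animals, so p-values measure the spread between these libraries. Dates in the labels placed CD11c-DTR libraries in 3 experiments. Titles that share a date, and a number where they carry one, pair 7 colonic with 7 ileal libraries of days 8 and 12 (in 1 pair the years differ, read as a slip). Colon day 12 replicates 1 and 4 and their ileal partners have no number in their titles and were paired by date. Whether a pair is 1 mouse is not stated. The deviations of paired libraries from their group means correlated at 0.05 to 0.51, over 0.1 in all pairs but the one with the slip. No duplicate library was found in 51 within-group pairs (smallest chi-square per degree of freedom 4.73).

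Counts were fitted with edgeR 4.0.16 (TMM, glmQLFit, glmQLFTest) in R 4.3.3 with limma 3.58.1. A fit of 7 groups (25 libraries, 11842 genes) and another of the graft, colon day 12 and CX3CR1-DTR colon (13 libraries, 11718 genes) took genes that reached 50 normalized reads in 3 or more libraries, per mapped reads of the column header in the first and per reads on genes in the second. Genes were called at 0.05 after Benjamini-Hochberg adjustment. The standard error of a fold is the size of the fold over √F. Alternatives were DESeq2 1.42.0, size factors by RLE, library totals, no filter, the compared groups alone, an experiment block, a block of these pairs (added after seeing the data), all 4 colon day 8 libraries, ileum day 4 of experiment 2 alone and leaving out each library. The fits were tested on simulated data with known changes in genes above the median level. Of the 2-fold changes 21 to 26% were called, and of the 4-fold changes 84 to 89%. A gene that misses the threshold may therefore still differ by 2-fold.

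The 9 genes, the pathway lists and the marker lists were chosen with earlier results of these data known. Named beside the 9 genes are the 2 called genes with the largest changes of each pathway list in each comparison, of which examples are given, and the 3 genes most like each of the 9. Promoter sequences are from RefSeq (GRCm38.p6) and were matched to NCBIM37, which is mm9, and all 9 genes had one. Python 3.11.15, numpy 2.4.6, pandas 2.3.3 and matplotlib 3.10.9 were used for tables and figures.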

Additional observations from a re-analysis of the deposited data

Results flagged for a closer look

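Of 53 sets of 4 or 6 libraries (1 gene in 1 group), 10 had a highest or lowest library far from the others by Dixon's test at the 95% level, which chance alone gives in about 1 of 20. Of these 10, 4 were colon day 8 replicate 1, the library outside the fits, which was far above the other 3 for Il1a (629.6 normalized reads), Il1b (23351), Il1r2 (7836) and Il18bp (506). In the same library Il1rn (2181), Il18 (798), Casp1 (776) and Nlrp3 (787.0) were also above every graft library, whose highest values were 90.7, 217, 351 and 498. Pycard (4092) was below every graft library. Its macrophage marker sum of 111574 lay within the ileal range and its epithelial sum of 111664 below the other colonic libraries.

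Ileum day 12 replicate 1 was far above the other 3 for Il1b (18477) and Nlrp3 (837), and also had the highest macrophage marker sum of the gut libraries (144817). Nlrp3 was far above the others in ileum day 4 replicate 3 (608, from 36 counts). That library was the shallowest, with 591817 reads on genes, and had 3 of the 5 classical monocyte genes at 0. In colon on day 12, Il18bp was far above the others in replicate 2 (333) and Casp1 far below them in replicate 1 (513). Casp1 was also far above the others in colon day 8 replicate 4 (1570.2), the library with the lowest macrophage marker sum of that day (6558). The cause of these values was not tested.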

How the results depend on the processing

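The number of the 9 genes called was the same or within 1.5 times under most alternatives. From day 4 to day 8 in ileum it was 1, and 0 with the compared groups alone, with the replicate block by experiment and with ileum day 4 of experiment 2 alone. Between colon and ileum on day 4 it was 0, and 1 with DESeq2, 1 with the replicate block and 2 with ileum day 4 of experiment 2 alone. From colon day 12 to CX3CR1-DTR colon it was 5, and 3 with the compared groups alone. That block changed no other call of a member. With the replicate block of colon and ileum libraries paired by their titles, 5 of the 9 passed on day 8 and 5 on day 12 in place of 2 and 3, none of the earlier calls was lost, and Pycard on day 8 turned to 0.07. Deviations from the group means had a median correlation of 0.02 between libraries of 1 experiment in different groups (96 pairs, 31 over 0.1) and -0.01 between experiments (171 pairs, 47 over 0.1). Leaving out 1 library at a time gave 6 to 7 from the graft to colon on days 4 and 8 and to ileum on day 8, 7 to 7 to colon on day 12 and to ileum on days 4 and 12, 0 to 0 in both colonic steps, in ileum from day 8 to day 12 and for the interaction, 0 to 1 in ileum from day 4 to day 8, 0 to 2, 2 to 3 and 1 to 6 between the segments on days 4, 8 and 12, 4 to 7 from the graft to CX3CR1-DTR colon and 3 to 6 against colon on day 12. The lower ends came without ileum day 4 replicate 2 (0, from day 4 to day 8), colon day 12 replicate 4 (1, between the segments), graft replicate 2 (4), and colon day 12 replicate 2 or CX3CR1-DTR replicates 3, 4 or 6 (3). Between the segments it was 2 on day 4 without ileum day 4 replicate 2, and on day 12 it was 6 without colon replicate 2 and 2 without colon replicates 1 or 3 or ileum replicates 1, 3 or 4. The shares over all genes in these leave-one-out fits are not given here. The counts therefore show only how far the calls rest on single libraries.

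Signs turned mostly for genes near 0. Scaling to library totals gave Pycard -0.03, -0.10, -0.34 and -0.25 from the graft to colon on days 4 and 12 and to ileum on days 4 and 8, 0.29 between the segments on day 8 and -0.04 to CX3CR1-DTR colon. Pycard was -0.07 in ileum on day 4 with experiment 2 alone, 0.01 in ileum on day 12 with the block, and 0.03 between the segments on day 8 with no filter. Il1rn between the segments on day 12 was -0.03 with the compared groups alone. All 4 colon day 8 libraries gave 0.54 for Il1a, 0.63 for Il1b and 0.99 for Il1r2 between the segments on day 8. Leaving out 1 library at a time gave Pycard -0.02 to 0.18 in ileum on day 4, -0.09 to 0.13 in ileum on day 12 and -0.24 to 0.17 between the segments on day 8, and between the segments Il1rn -0.06 to 0.42 on day 4 and -0.28 to 0.88 on day 12, Casp1 -0.10 to 0.35 on day 4 and Nlrp3 -1.99 to 0.22 on day 12. Of the ratios chosen after seeing the data, Il1b per macrophage marker read gave 0.52 and Il18 per epithelial marker read -0.15 for colon over ileum on day 12 as log2 ratios of medians. The cause of these changes was not tested. Depth limits the low genes, since the floor of 3 counts reached 50.7 normalized reads in the shallowest library.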
